A study of Homo sapiens with 56 samples.

Results

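Gene expression was compared between MINO-VR and MINO-P, which the labels list as separate cultures of MINO, a human cell line of mantle cell lymphoma, in the absence of BTZ. The comparison took every library of either culture whose treatment label was CON, CLF, IBR, IBR_CLF, YM155 or S63845, which gave 19 of the 56 libraries of the series: 9 of MINO-VR and 10 of MINO-P. MINO-VR had 1 library each of CON, CLF, YM155 and S63845, 3 of IBR and 2 of IBR_CLF. MINO-P had 1 library each of CON, CLF and YM155, 3 of IBR, 2 of IBR_CLF and 2 of S63845. CON is taken as untreated, because the series' design text speaks of untreated samples. YM155 was made as a drug against BIRC5 (survivin), and S63845 inhibits the MCL-1 protein. The labels leave BTZ, CLF, IBR, P and VR unexplained and state neither doses nor times. Because each treatment was present in both cultures, the difference was fitted within treatments.  The 6 libraries in which both cultures had received BTZ, BTZ_CLF or BTZ_YM155 served as a second, separate set.

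Mantle cell lymphoma is a cancer of mature B cells that carries a high level of cyclin D1. B cells of this kind keep the antigen receptor pathway, present antigen on MHC class I and class II molecules, and degrade most of their proteins with the proteasome. Interferon, a signal of infection, switches on a large set of genes through transcription factors that include STAT2 and IRF9, among them antiviral enzymes, MHC class I genes and the catalytic subunits that turn the proteasome into the immunoproteasome. Serine is made from a glycolytic intermediate in consecutive steps by PHGDH, PSAT1 and PSPH, and feeds nucleotide and glutathione synthesis.

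Libraries held 7.89 to 21.6 M recovered reads, and 3 reads correspond to 0.139 to 0.38 CPM (reads of a gene per 1 M). The mitochondrial share of a library averaged 7.95% ± 4.54 (SD, n = 9) in MINO-VR and 8.9% ± 4.83 (SD, n = 10) in MINO-P. Within treatments it was -1.07 percentage points different (MINO-VR minus MINO-P; exact permutation test within treatments, 2-sided, p = 0.406). Depth differed by 1.47 M reads (exact permutation p = 0.34). All 8 B-cell markers were above 1 CPM in all 19 libraries, as were CCND1, SOX11 and CD5. Of 8 T-cell genes, CD3D, CD3E, CD3G and CD2 stayed under 1 CPM in each of them. TRAC reached 31.1 CPM in MINO-P and 40.8 CPM in MINO-VR. The highest values of CD8A, CD4 and CD247 in any of these libraries were 4.93, 3.19 and 1.45 CPM. Libraries named HK (CON and CLF) and MCL (the other treatments) form 2 series, and each treatment lay in 1 series only. Some MCL libraries, the pairs of IBR replicates 1 and 2 and of IBR_CLF replicates 1 and 2 in each culture, have names that differ only by a final letter. On recovered reads these 4 pairs differed by a chi-square over its degrees of freedom of 6.66 to 8.89, where the ratio was 128 to 183 for the 5 other pairs of the same culture and treatment. They exceeded counting noise and were kept as separate libraries, but the labels do not show them to be separate cultures, so p-values may measure technical spread in part. IBR replicate 3 stood apart from the IBR pair in both cultures: CCND1, for example, was at 2403 CPM in MINO-P and 1780.3 CPM in MINO-VR, against 695 and 738 CPM, and 469 and 481 CPM, in the other IBR libraries. MINO-P IBR replicate 3 and S63845 replicate 2 had the fewest genes above 0 (13410 and 13672).

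The cultures differed broadly. Of 14448 genes tested, 2423 differed at an adjusted p under 0.05 (limma with Benjamini-Hochberg adjustment, treatment as block), which is 16.8% of all genes tested. Of these, 1589 were higher in MINO-VR, or 11% of the genes tested, and 834 were lower, or 5.77%. Differences are MINO-VR minus MINO-P in log2(CPM + 1), a scale that makes changes of low genes look smaller than they are. Differences of more than 1 were found for 329 genes that were higher and 179 that were lower, and the median over all genes was 0.06. In 1130 of the genes called higher and 648 of those called lower, the culture means had the same order in all 6 treatments. Few genes separated the cultures in every library: 68 genes (0.471% of those tested) were higher in every MINO-VR library than in any MINO-P library, and 47 (0.325%) were lower. The number of calls was 1050 when the 4 pairs of near-identical libraries were averaged, and 4477 with library weights. It was 1568 in the MCL libraries alone (1123 higher, 445 lower) and 5488 in the 4 HK libraries alone (2423 higher, 3065 lower), where 1 residual degree of freedom is left.

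**Figure D1:**
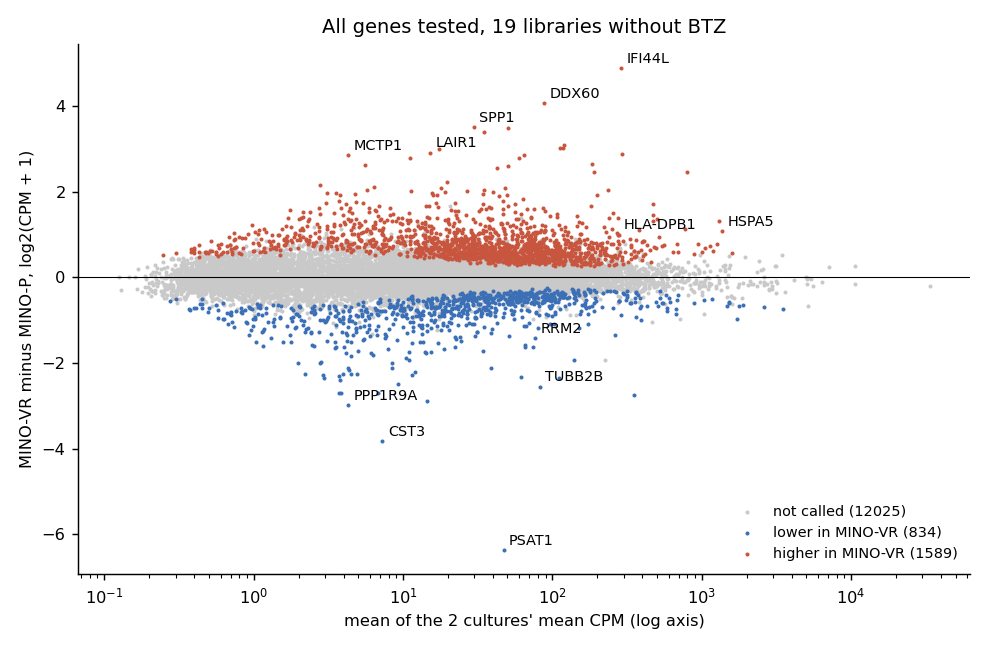
Each point is 1 of the 14448 genes tested, with the average of the 2 cultures' mean CPM on a log axis and the difference MINO-VR minus MINO-P on the log2(CPM + 1) scale; red points were called higher in MINO-VR (1589) and blue points lower (834). PSAT1 lies alone at the bottom, at -6.37, and IFI44L at the top, at 4.89.

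The largest difference of all genes tested was that of PSAT1, the aminotransferase that carries out the middle step of serine synthesis (chromosome 9, 78297125 to 78330094 in the deposited table, read as GRCh38). MINO-P had 74.5 to 149 CPM of PSAT1 in 9 of its 10 libraries and 21.3 CPM in IBR replicate 3, with a median of 92.7 CPM. In MINO-VR, 6 of the 9 libraries had no read, and the highest had 4 recovered reads, or 0.269 CPM. All MINO-VR libraries together held 9 recovered reads of PSAT1 among 144 M, where a single MINO-P library held 350 to 2393. The fitted difference was -6.37 ± 0.25 (SE, adjusted p = 1.08e-11), and it depends on the pseudocount because MINO-VR is at or near 0. In the BTZ libraries, PSAT1 was at 61.3, 69.3 and 21.7 CPM in MINO-P (BTZ, BTZ_CLF and BTZ_YM155) and at 0.0567, 0.25 and 0 CPM in MINO-VR. The other lines of the series had PSAT1 as well: 11.4 to 414 CPM in the 15 JEKO-1 libraries and 12.01 to 172 CPM in the 13 Z138 libraries, over all their treatments.

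Because the gene was nearly silent in 1 culture and well expressed in the other, the 200 bases before its start are shown, with those of CST3, the next in size of fall (RefSeq, GRCh38.p14; PSAT1 chr9:78296925-78297124, plus strand; CST3 chr20:23637956-23638155, minus strand). Capitals mark CG dinucleotides.
PSAT1: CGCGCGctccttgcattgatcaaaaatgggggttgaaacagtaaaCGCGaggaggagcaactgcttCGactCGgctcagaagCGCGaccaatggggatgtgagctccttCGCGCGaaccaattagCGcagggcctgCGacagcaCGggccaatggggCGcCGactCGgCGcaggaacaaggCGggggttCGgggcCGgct
CST3: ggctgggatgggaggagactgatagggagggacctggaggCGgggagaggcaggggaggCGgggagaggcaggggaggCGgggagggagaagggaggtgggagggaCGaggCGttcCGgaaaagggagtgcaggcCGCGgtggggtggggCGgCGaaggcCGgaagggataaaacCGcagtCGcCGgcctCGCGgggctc
Over the 250 bases before the start, PSAT1 had 30 CG dinucleotides, more than 87.8% of 27305 promoters of this length, and CST3 had 16, more than 59.2%; the median was 11 over all promoters and 21 over those of the genes tested, so CST3 lay below the latter. DNA methylation was not measured in this series.

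The list that holds PSAT1 had a share of calls near the 16.8% of all genes. Of the 16 genes in the list of ATF4 targets and serine synthesis, 2 were lower in MINO-VR (PSAT1 and MTHFD2), 1 was higher (PSPH) and 13 did not pass the test, and the list's median difference was 0.06 against 0.06 for all genes. PHGDH, the enzyme before PSAT1, had 99.4 to 429.8 CPM (median 283) in MINO-P and 48.6 to 523 CPM (median 275) in MINO-VR, a difference of -0.26 ± 0.28 (SE, adjusted p = 0.586). The phosphatase after it, PSPH, differed by 0.33 ± 0.11 (SE, adjusted p = 0.0486). SHMT2, which splits serine in mitochondria, differed by 0.38 ± 0.19 (SE, adjusted p = 0.194). MTHFD2, the next mitochondrial enzyme of the folate cycle, differed by -0.71 ± 0.21 (SE, adjusted p = 0.0282), with 146 to 715 CPM (median 454) in MINO-P and 107 to 461 CPM (median 288) in MINO-VR. ATF4 itself, the transcription factor of the amino acid response, differed by -0.19 ± 0.18 (SE, adjusted p = 0.532). The calls of PSPH and MTHFD2 were lost in 16 of 19 and 6 of 19 fits that left out 1 library, with adjusted p up to 0.106 and 0.0771.

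Besides PSAT1, 8 other genes with a mean of at least 5 CPM in MINO-P stayed under 1 CPM in every MINO-VR library: CST3, PPP1R9A, CLIP4, EHD3, EFNB1, SALL2, USP40 and the noncoding AFDN-DT. CST3, the secreted cathepsin inhibitor cystatin C, had 7.15 to 24.7 CPM (median 13.5) in MINO-P, and 7 of 9 MINO-VR libraries had no read, with 2 recovered reads in all. PPP1R9A, the actin-binding scaffold neurabin, had 2.42 to 20.3 CPM (median 7.54) in MINO-P and not 1 read in any MINO-VR library, which allows up to 3 reads in each. CLIP4, a microtubule-binding protein, had 2.34 to 10.6 CPM (median 7.87) against 0 to 0.796 CPM (median 0.264). EHD3, which works in endosome recycling, and the membrane ligand EFNB1 were at 0.506 and 0.749 CPM at most in MINO-VR, below the lowest MINO-P libraries (2.35 and 2.03 CPM). In the opposite direction, 1 gene met the mirrored condition: CRIM1, a membrane protein that binds bone morphogenetic proteins, was at most 0.61 CPM in MINO-P and 0.994 to 9.85 CPM in MINO-VR.

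The other large falls left a measurable level in some or all MINO-VR libraries. TUBB2B, a beta-tubulin with close paralogs whose reads may be shared, had 58.3 to 216 CPM (median 143) in MINO-P and 10.4 to 53.7 CPM (median 20.3) in MINO-VR, with no overlap and a difference of -2.56 ± 0.22 (SE, adjusted p = 6.78e-07). The kinase CAMK4 had 6.23 to 53.4 CPM (median 22.96) in MINO-P. In MINO-VR it stood at 15.3 CPM in CON, 11.1 CPM in CLF and 4.94 CPM in YM155, and between 0.321 and 1.12 CPM in the other 6 libraries, a difference of -2.88 ± 0.28 (SE, adjusted p = 2.51e-06). The lipid carriers APOC2 and APOD differed by -2.70 and -2.48, without overlap between the cultures, and by -0.91 and -0.65 with BTZ. ARMCX2, of an X-linked armadillo repeat family, was lower as well (-2.40 ± 0.20, SE, adjusted p = 4.75e-07). SNORD3A passed the test (-2.75 ± 0.81, SE, adjusted p = 0.0256) but is a small RNA with further copies, poorly captured by poly-A selection, at 0.683 to 1512 CPM in MINO-P, and its call was lost without MINO-VR IBR_CLF replicate 2 or MINO-VR S63845 replicate 1 (adjusted p up to 0.0845).

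**Figure D2:**
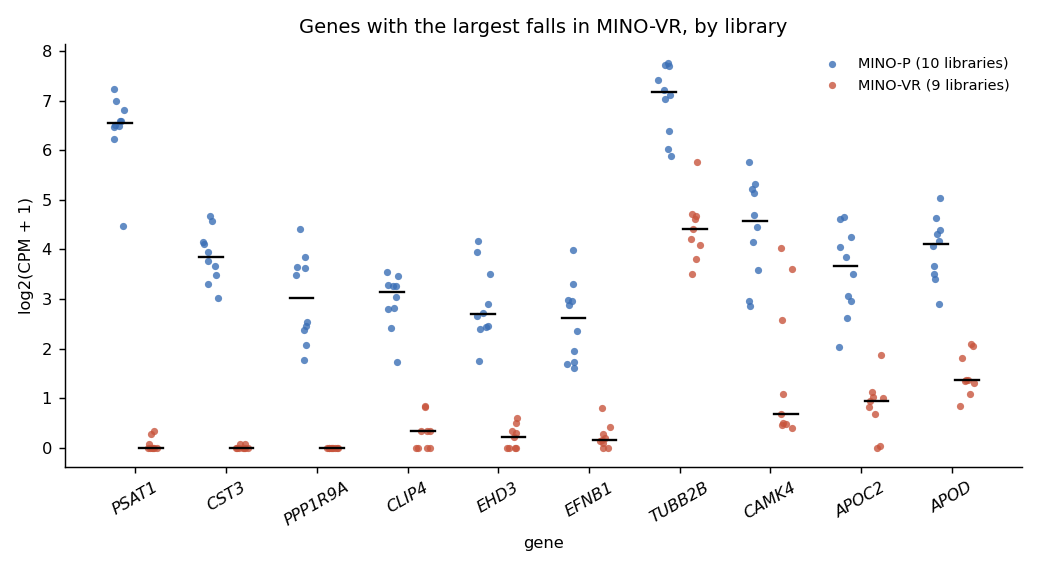
Each point is 1 library, as log2(CPM + 1), for 10 of the genes with the largest falls; blue marks MINO-P (10 libraries), red MINO-VR (9 libraries), and black bars mark medians. PSAT1, CST3 and PPP1R9A sit at or near 0 in every MINO-VR library, and CAMK4 is the only gene shown whose cultures overlap.

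Genes that respond to interferon were higher in MINO-VR. Of the 29 genes of the interferon list that were tested, 24 were higher in MINO-VR, none was lower and 5 did not pass the test, and the median difference was 1.72. Over all genes tested, 11% were higher and 5.77% lower. IFI44L, an interferon-induced gene, had 1.47 to 660.4 CPM (median 5.05) in MINO-P and 254 to 739 CPM (median 452) in MINO-VR, a difference of 4.89 ± 0.64 (SE, adjusted p = 5.86e-05). USP18, which damps signalling at the interferon receptor, had 0 to 122 CPM (median 1.89) against 23.1 to 305 CPM (median 37.6) (3.50 ± 0.55, SE, adjusted p = 0.0003). IFI6, a mitochondrial interferon-induced protein, differed by 3.03 ± 0.53 (SE, adjusted p = 0.000677), and XAF1, a proapoptotic interferon target, by 3.01 ± 0.49 (SE, adjusted p = 0.000389). Of the transcription factors of the pathway, IRF9 differed by 1.55 ± 0.25 (SE, adjusted p = 0.000389) and IRF7 by 1.66 ± 0.31 (SE, adjusted p = 0.00138), while STAT2 did not pass the test (0.36 ± 0.24, SE, adjusted p = 0.343), nor did IRF1 (0.26 ± 0.16, SE, adjusted p = 0.321). The tetherin gene BST2 was the only list member higher in every MINO-VR library than in any MINO-P library, with 66.6 to 227 CPM (median 189) against 262 to 455 CPM (median 330.2). Over all genes tested, 0.471% had this order. Among the 12 largest rises of genes that were higher in MINO-VR in all 6 treatments, IFI44L and 6 others were antiviral or interferon-induced genes, among them the helicase DDX60 (4.07), its neighbour DDX60L (3.40), EPSTI1 (3.10), HERC6 (2.64), and the RNA-binding IFIT1 (2.85) and IFIT3 (2.65). DDX60 and DDX60L, and the IFIT genes, are similar in sequence, and how reads were shared between them is not stated.

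Some MINO-P libraries reached the level of MINO-VR, so the cultures overlapped for 28 of the 29 interferon genes. In CON the median over the 29 genes was 19.97 CPM in MINO-P and 305 CPM in MINO-VR. With CLF it was 28.1 and 169.6 CPM. With IBR it was 16.9, 21.1 and 35.9 CPM in MINO-P and 78.7, 92.9 and 161 CPM in MINO-VR. With IBR_CLF it was 15.1 and 12.6 CPM in MINO-P and 87.2 and 94.9 CPM in MINO-VR. All 29 genes had a higher mean in MINO-VR in CON, CLF, IBR and IBR_CLF. In YM155, MINO-P was at 251 CPM and MINO-VR at 228 CPM, and 10 of 29 genes were higher in MINO-VR. In S63845, MINO-P replicate 1 was at 233 CPM and replicate 2 at 42.1 CPM, against 129.8 CPM in MINO-VR, and 20 of 29 genes were higher in MINO-VR. IFI44L spread widely within MINO-P, with 660.4 CPM in YM155, 440.5 and 41.97 CPM in the S63845 replicates, 17.4 CPM in IBR replicate 3 and at most 5.08 CPM in the other 6 libraries. MX1, an antiviral GTPase, had 1568 CPM in MINO-P and 953 CPM in MINO-VR under YM155, and 285 against 3059 CPM in CON. With 1 library of each culture in YM155, the difference between treatments was not tested for that drug. The HK libraries alone gave 29 of 29 genes higher with a median of 3.43, and the MCL libraries alone 16 of 29 with a median of 1.31. Without the treatment block 14 of 29 passed, and with the pairs averaged 16.

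**Figure D3:**
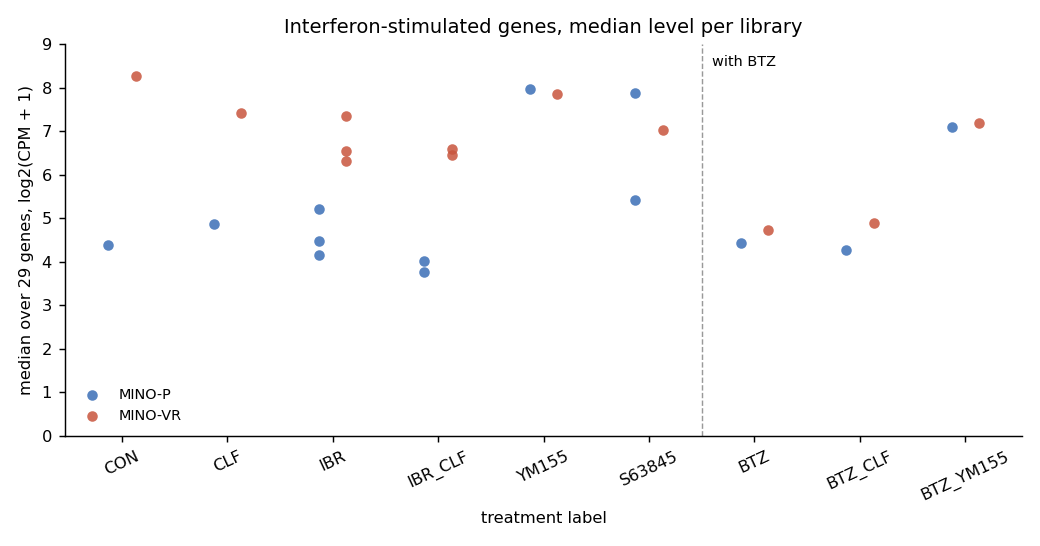
Each point is 1 library: the median over 29 interferon-stimulated genes as log2(CPM + 1), by treatment label, for MINO-P (blue) and MINO-VR (red); libraries with BTZ stand to the right of the dashed line. MINO-VR lies above MINO-P in CON, CLF, IBR and IBR_CLF, while in YM155 the cultures lie at 7.97 and 7.84.

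With BTZ and BTZ_CLF the interferon genes were low in both cultures. Their median was 20.7 CPM in MINO-P and 25.4 CPM in MINO-VR with BTZ, and 18.2 and 28.8 CPM with BTZ_CLF. With BTZ_YM155 both cultures were high, at 135 and 144 CPM. Over the 3 BTZ treatments the median difference of the list was 0.34, with 19 of 29 genes higher in MINO-VR. IFI44L had 1.59 and 1.02 CPM in MINO-P against 26.4 and 25.9 CPM in MINO-VR for BTZ and BTZ_CLF. The mean difference of IFIT1 with BTZ was -0.26. The change of the difference with BTZ passed the test for none of these genes.

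Many interferon-stimulated genes are known to carry in their promoters the sequence bound by a complex with STAT2 and IRF9, the interferon-stimulated response element. It was searched as GAAANNGAAA on both strands (TTTCNNTTTC on the other) in the 250 bases before each gene's start (RefSeq, GRCh38.p14); overlapping matches were allowed. Of the 29 list genes, 22 had a promoter in the reference, and 12 of these (54.5%) held a match, against 3.07% of all 27305 promoters and 2.47% of those of the genes tested. Among all genes tested, a match stood in 5.02% of promoters of genes called higher, 1.8% of those called lower and 2.17% of those not called. Without the interferon list the share among genes called higher was 4.12%. Of the 12 largest rises, 11 had a promoter and 7 of these a match, and of the 12 largest falls 10 had a promoter and none a match. A match describes the letters and is not evidence of binding. The segments around the match nearest to the start are shown for 7 genes called higher, picked because their promoters hold one, with matches in capitals (IFI44L chr1:78620350-78620409, plus strand, DDX60 chr4:168318771-168318830, minus strand, EPSTI1 chr13:42992257-42992316, minus strand, IFI6 chr1:27672251-27672310, minus strand; PLSCR1 chr3:146544652-146544711, minus strand, IFIT1 chr10:89392495-89392554, plus strand, LGALS3BP chr17:78979947-78980006, minus strand).
IFI44L: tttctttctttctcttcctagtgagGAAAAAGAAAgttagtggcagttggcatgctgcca
DDX60: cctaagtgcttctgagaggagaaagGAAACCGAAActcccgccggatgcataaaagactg
EPSTI1: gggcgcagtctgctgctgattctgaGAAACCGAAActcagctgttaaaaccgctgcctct
IFI6: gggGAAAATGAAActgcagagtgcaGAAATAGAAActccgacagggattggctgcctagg
PLSCR1: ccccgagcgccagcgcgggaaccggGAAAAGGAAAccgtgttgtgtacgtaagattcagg
IFIT1: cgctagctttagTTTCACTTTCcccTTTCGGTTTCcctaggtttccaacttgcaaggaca
LGALS3BP: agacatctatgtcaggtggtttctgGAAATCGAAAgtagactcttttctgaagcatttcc
BST2 and ISG15 carry overlapping matches (BST2 chr19:17405720-17405779, minus strand; ISG15 chr1:1013365-1013424, plus strand).
BST2: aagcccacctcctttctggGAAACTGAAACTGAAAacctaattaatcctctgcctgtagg
ISG15: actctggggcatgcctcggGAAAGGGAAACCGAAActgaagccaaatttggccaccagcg
BST2 differed by 1.13 ± 0.17 (SE, adjusted p = 0.000227) and ISG15 by 2.04 ± 0.47 (SE, adjusted p = 0.00554).

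Antigen presentation genes were higher in MINO-VR for both MHC classes. Their counts stand beside 11% called higher and 5.77% called lower over all genes. Of 12 genes of class I presentation, 7 were higher, none was lower and 5 did not pass the test, with a median of 0.72. HLA-B (0.78) and HLA-C (0.79) present peptides to T cells, and HLA-E had 269 to 409.6 CPM (median 355) in MINO-P and 462 to 759 CPM (median 518) in MINO-VR with no overlap. HLA-E was the only class I gene of the list with this order, which 0.471% of all genes tested had. TAP1, which carries peptides into the endoplasmic reticulum, was higher by 0.84 ± 0.18 (SE, adjusted p = 0.00402), and its partner TAP2 did not pass the test (0.61 ± 0.23, SE, adjusted p = 0.0833). B2M, the light chain of class I molecules, had 1091 to 3311 CPM (median 1440.1) in MINO-P and 1592 to 2848 CPM (median 2346) in MINO-VR (0.47 ± 0.16, SE, adjusted p = 0.051). Of 14 class II genes, 10 were higher and none was lower, with a median of 0.72. HLA-DPB1 had 114 to 266 CPM (median 182) in MINO-P and 222 to 524 CPM (median 361) in MINO-VR (0.99 ± 0.15, SE, adjusted p = 0.000206), and HLA-DRB1 (0.85), HLA-DQA1 (0.85) and HLA-DQB1 (0.75) were also higher. HLA-DOB, a subunit of a class II chaperone inhibitor, was higher by 1.31 ± 0.23 (SE, adjusted p = 0.000811) at a low level. CIITA, the master regulator of class II genes, did not pass the test (0.61 ± 0.30, SE, adjusted p = 0.175), nor did the invariant chain CD74 (0.27 ± 0.22, SE, adjusted p = 0.439). HLA genes resemble each other and vary between alleles, so counts can be split between them. The medians were 0.96 in the HK libraries alone and 0.59 in the MCL libraries alone for class I and 0.61 in the HK libraries alone and 0.73 in the MCL libraries alone for class II. In YM155, where the interferon list had a median of -0.24, the class I median was 0.15 and the class II median 0.98. The counts were 2 of 12 and 1 of 14 without the treatment block, and the class II count was 6 with the pairs averaged and 7 to 12 when 1 library was left out. In the BTZ libraries, which the fit did not use, all 12 class I and all 14 class II genes had a higher mean in MINO-VR, with medians of 0.43 and 0.87. The windows of 20 to 30 and 30 to 40 Mb of chromosome 6, where the HLA genes lie, had medians of 0.07 and 0.17 over all their genes.

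Of 32 genes of the constitutive proteasome 3 passed the test, and of 5 genes of the immunoproteasome 4 did, where 16.8% of all genes passed. PSMB5, the constitutive subunit with chymotrypsin-like activity, had 70.2 to 115 CPM (median 79.4) in MINO-P and 47.00 to 105 CPM (median 92.1) in MINO-VR, a difference of 0.00 ± 0.11 (SE, adjusted p = 1). Of 14 core subunits 1 was higher, PSMB7 (0.59 ± 0.11, SE, adjusted p = 0.00139), which lies on chromosome 9 in the stretch described below. Of 18 genes of the regulatory particle 2 were lower, the ATPase PSMC4 (-0.45 ± 0.13, SE, adjusted p = 0.0207) and PSMD8 (-0.34 ± 0.10, SE, adjusted p = 0.0256), whose call was lost in 3 of 19 fits that left out 1 library (adjusted p up to 0.0659). Of the 5 genes of the immunoproteasome and its PA28 activator, 4 were higher, with a median of 0.45. PSMB8, which takes the place of PSMB5 in the immunoproteasome, differed by 0.69 ± 0.14 (SE, adjusted p = 0.00242): it had 25.6 to 101 CPM (median 71.2) in MINO-P and 54.9 to 178 CPM (median 69.7) in MINO-VR, so the ranges overlapped while the means were ordered alike in all 6 treatments. PSMB9 (0.62), PSMB10 (0.32) and PSME2 (0.45) passed by less. The calls of PSMB9 and PSME2 were lost in 11 of 19 and 12 of 19 fits that left out 1 library (adjusted p up to 0.0834 and 0.103), and the list's count fell to 1 of 5 in the least favourable of these fits, in the MCL libraries alone and with the pairs averaged, and to 0 without the treatment block. The medians were 0.69 in the HK libraries alone and 0.38 in the MCL libraries alone, but in YM155 the median was -0.46, with 2 of 5 genes higher in MINO-VR. The constitutive lists were also lower in YM155, which had 1 library of each culture. There the core subunits had a median of -0.49 (1 of 14 higher) and the regulatory particle -0.46 (2 of 18 higher). With BTZ the immunoproteasome list's median difference was 0.52, with all 5 genes higher in MINO-VR, and PSMB5 differed by 0.31.

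The counts in the lists of B-cell genes stand beside 11% called higher and 5.77% called lower over all genes. In the B-cell receptor list, 2 of 22 genes were higher and 2 lower. BTK, the receptor-proximal kinase, had 73.03 to 264 CPM (median 176) in MINO-P and 163 to 354 CPM (median 245) in MINO-VR (0.77 ± 0.16, SE, adjusted p = 0.00334). The adaptor DAPP1 was higher by 0.93 ± 0.27 (SE, adjusted p = 0.0234), a call lost without MINO-P or MINO-VR IBR_CLF replicate 2 (adjusted p up to 0.0525). CD79A, a signalling chain of the receptor, was lower, with a difference of -0.59 ± 0.11 (SE, adjusted p = 0.00114). Of 20 B-cell transcription factors, 4 were lower and 1 was higher. ETS1 had 48.2 to 259 CPM (median 133) in MINO-P and 30.4 to 136 CPM (median 48.1) in MINO-VR (-0.88 ± 0.19, SE, adjusted p = 0.00324), and BACH2, a repressor of plasma cell fate, was lower, with a difference of -0.97 ± 0.22 (SE, adjusted p = 0.00493). SPIB (-1.18 ± 0.31, SE, adjusted p = 0.0145) and FOXP1 (-0.45 ± 0.12, SE, adjusted p = 0.0127) were also lower. SPI1 (PU.1) was higher by 0.70 ± 0.20 (SE, adjusted p = 0.0236), a call lost in 3 of 19 fits that left out 1 library (adjusted p up to 0.0618). PAX5 (-0.10), EBF1 (0.12) and IKZF1 (0.09) did not pass the test. In the plasma cell list of 14, 3 were higher and 2 lower: IRF4 fell by 0.57 on the log2 scale (SE 0.09, adjusted p = 0.000332), SLAMF7 was higher by 1.46 ± 0.33 (SE, adjusted p = 0.00537) and MZB1 by 0.67 ± 0.18 (SE, adjusted p = 0.0175); the calls of the other two, SSR4 and CD27, were lost in 13 of 19 and 14 of 19 fits that left out 1 library (adjusted p up to 0.114 and 0.0795), and PRDM1 did not pass (-0.39 ± 0.19, SE, adjusted p = 0.169). None of the 12 mantle cell lymphoma markers passed the test. CCND1 differed by -0.23 ± 0.28 (SE, adjusted p = 0.633) and SOX11 by -0.30 ± 0.21 (SE, adjusted p = 0.376).

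The lists of adhesion, surface antigen, cytokine and NF-kB genes are read against 11% higher and 5.77% lower over all genes. In the adhesion list, 5 of 20 genes were higher and 3 lower: the integrin chain ITGB2 differed by 1.07 ± 0.25 (SE, adjusted p = 0.00573) and PECAM1 by 1.34 ± 0.38 (SE, adjusted p = 0.0199), while CD44, a hyaluronan receptor, was lower, with a difference of -0.64 ± 0.13 (SE, adjusted p = 0.00194) and the tetraspanin CD9 differed by -0.84 ± 0.23 (SE, adjusted p = 0.0175). Of 20 surface antigen genes tested, 1 was higher (LAIR1), 1 was lower (TNFRSF13B) and 18 did not pass the test. LAIR1, an inhibitory receptor for collagen, separated the cultures completely, with 1.08 to 6.16 CPM (median 2.33) in MINO-P and 16.6 to 36.5 CPM (median 25.9) in MINO-VR (2.91 ± 0.21, SE, adjusted p = 6.94e-08). TNFRSF13B (TACI), a receptor for B-cell survival ligands, was lower, with a difference of -0.94 ± 0.20 (SE, adjusted p = 0.0033). Of 22 cytokine and receptor genes, 5 were higher and 2 lower. Fits that left out 1 library lost the calls of IL6R, TNFRSF1B, TGFB1 and TNFSF9 in 13, 10, 10 and 5 of 19. In the adhesion list ITGAX and S1PR1 lost theirs in 14 and 9 of 19, and in the NF-kB list EBI3 in 11. The calls of IL2RA, ITGB2, PECAM1, CD44, CD9, TRAF1 and TRAF2 were kept in every such fit. In the NF-kB list, 6 of 28 genes were higher and none was lower, with a median of 0.24. The subunit RELA was higher by 0.39 ± 0.09 (SE, adjusted p = 0.00658), the inhibitor NFKBIA by 0.58 ± 0.14 (SE, adjusted p = 0.00861), the adhesion molecule ICAM1 by 0.79 ± 0.15 (SE, adjusted p = 0.00183) and the adaptors TRAF1 and TRAF2 by 1.26 and 0.84. TRAF1 and TRAF2 both lie in the stretch of chromosome 9 described below. In the HK libraries alone the NF-kB list had 9 genes called higher and 6 called lower, and its median was 0.07. Of 8 myeloid markers 6 were in the table and 4 were tested, of which CD68, LYZ and ITGAM were higher. The summed level of the markers was 5.81 to 32.4 CPM in MINO-P and 28.3 to 135 CPM in MINO-VR. Most of this sum was CD68 alone, with 4.995 to 29.6 CPM in MINO-P and 27.1 to 112 CPM in MINO-VR. LYZ and ITGAM were low, at most 11.4 and 13.5 CPM in MINO-VR. The ranges of the cultures overlapped for CD68, LYZ and ITGAM. CSF1R stayed under 1 CPM in every library, and CD14 and S100A9 reached at most 1.18 and 1.01 CPM. CD68, LYZ and ITGAM were higher in the same culture as SPI1, ITGB2 and LAIR1. Covariation of these genes across libraries was not tested, nor was the part of the myeloid markers in those results.

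The genes that the study's title names, BIRC5 and MCL1, did not pass the test. BIRC5 (survivin), an inhibitor of apoptosis that also works in cell division, had 18.7 to 121 CPM (median 46.6) in MINO-P and 10.6 to 64.1 CPM (median 38.5) in MINO-VR, a difference of -0.41 ± 0.26 (SE, adjusted p = 0.307). MCL1 had 164 to 357 CPM (median 245) against 200.2 to 458 CPM (median 277) (0.19 ± 0.13, SE, adjusted p = 0.328), and BCL2 had 263 to 864 CPM (median 592) against 443 to 1063 CPM (median 687) (0.31 ± 0.15, SE, adjusted p = 0.157). None of the 6 antiapoptotic BCL2 genes passed the test, where 16.8% of all genes did, with a median of 0.32. SLC35F2, the transporter that carries YM155 into cells, differed by -0.06 ± 0.15 (SE, adjusted p = 0.844). Among 9 proapoptotic BCL2 genes tested, 2 were lower in MINO-VR, against 5.77% lower over all genes, and none was higher. Both belong to the BH3-only class and were at a low level. HRK had 2.93 to 12.02 CPM (median 5.71) in MINO-P and 0.366 to 4.43 CPM (median 1.91) in MINO-VR (-1.35 ± 0.27, SE, adjusted p = 0.002). BIK differed by -1.06 ± 0.25 (SE, adjusted p = 0.00665). XIAP, which blocks caspases, was higher (0.77 ± 0.16, SE, adjusted p = 0.00294), with 64.7 to 149 CPM (median 89.01) in MINO-P and 117 to 208 CPM (median 178) in MINO-VR; it lies in the stretch of chromosome X described below. The death receptor TNFRSF10B was higher by 0.44 ± 0.10 (SE, adjusted p = 0.00572).

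Of 20 genes of sterol and fatty acid synthesis, 6 were higher and none was lower, with a median of 0.41; the medians were -0.15 in the HK libraries alone and 0.57 in the MCL libraries alone. The desaturase FADS2 differed by 1.39 ± 0.28 (SE, adjusted p = 0.00203) over all libraries and by -0.15 in the HK libraries, and SREBF1, which drives fatty acid genes, by 0.82 ± 0.22 (SE, adjusted p = 0.0135) and -0.15. Among 15 genes of endoplasmic reticulum stress, 3 were higher, where 11% of all genes were: the chaperone HSPA5 (BiP) with 215 to 1443 CPM (median 775) in MINO-P and 654 to 3956 CPM (median 1528) in MINO-VR (1.09 ± 0.22, SE, adjusted p = 0.00213), EDEM1 (0.63) and CALR (0.54). The list's median was 0.18, but it was -0.49 in YM155 (3 of 15 genes higher in MINO-VR), -0.32 in S63845 (4 of 15) and -0.46 with BTZ (4 of 15). HSPA5 lies on chromosome 9 too. XBP1 (0.17) and DDIT3 (0.33) did not pass. Of 18 replication genes, 3 were lower and 1 was higher, against 5.77% and 11% of all genes. The calls of CDT1 (lower) and MCM5 (higher) were lost in 7 and 5 of 19 fits that left out 1 library. The list's median was -0.77 in CON, -0.32 in CLF, -0.03 in IBR and 0.004 in IBR_CLF. It was -1.77 in YM155, 0.11 in S63845 and 0.22 with BTZ. RRM2, the regulated subunit of ribonucleotide reductase, had 12.6 to 321 CPM (median 81.4) in MINO-P and 4.55 to 122 CPM (median 9.8) in MINO-VR (-1.42 ± 0.22, SE, adjusted p = 0.000283), and TYMS, which makes thymidylate, was lower, with a difference of -0.86 ± 0.22 (SE, adjusted p = 0.0111). In the BTZ libraries the direction of both was opposite, with mean differences of 0.65 and 0.63. Of 18 mitosis genes 1 passed, CENPE (lower), a call lost in 13 of 19 fits that left out 1 library. In glycolysis and hypoxia 1 of 23 was higher, the glucose carrier SLC2A1 (0.52), and 3 were lower, among them GPI (-0.55) and NDRG1 (-0.83). Of 15 p53 targets, 2 were higher and 1 was lower, and 5 of 15 had a positive difference, with a median of -0.14; XPC, a repair gene on chromosome 3, was among the higher ones (0.71 ± 0.11, SE, adjusted p = 0.000386). Of 17 chromatin regulators 2 were lower, HDAC9 (-1.08) and the DNA methyltransferase DNMT3A (-0.66).

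**Figure D4:**
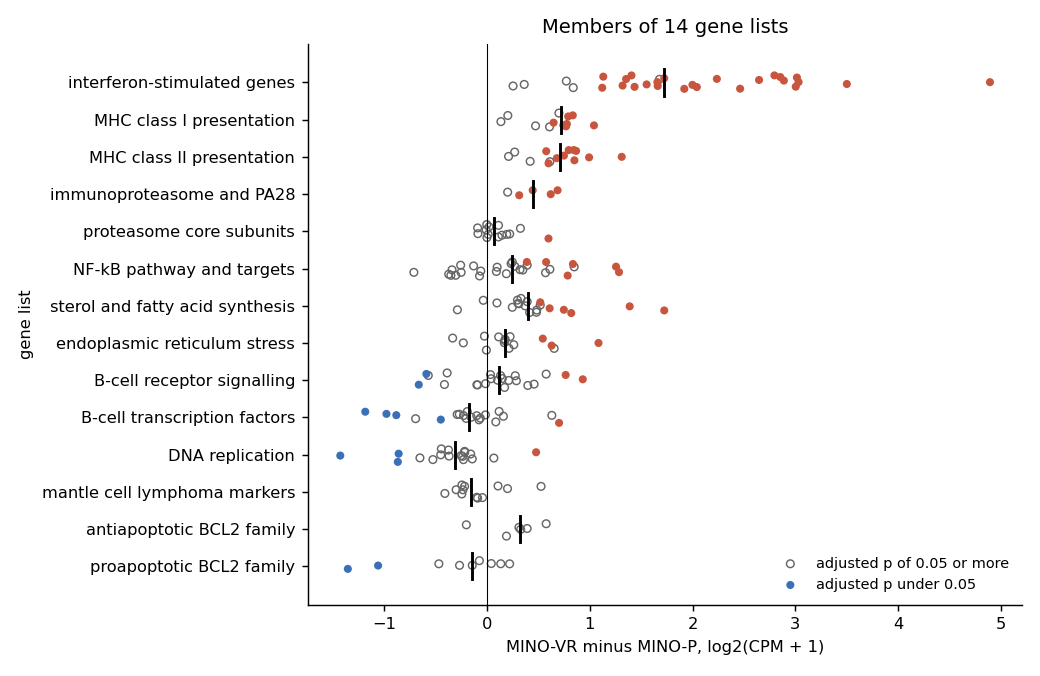
Each point is 1 gene of a list, at its difference MINO-VR minus MINO-P on the log2(CPM + 1) scale; filled points had an adjusted p under 0.05 (red higher, blue lower), open points did not, and black bars mark the median of each list. The interferon list lies farthest to the right, with a median of 1.72, and the antiapoptotic BCL2 list and the mantle cell lymphoma markers hold no filled point.

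Some of the largest rises belonged to no list. SPP1 (osteopontin), a secreted adhesion protein, had 0 to 18.4 CPM (median 1.99) in MINO-P and 4.92 to 103 CPM (median 50.6) in MINO-VR (3.51 ± 0.49, SE, adjusted p = 9.84e-05). IGF2BP1, an RNA-binding protein, had 0.0807 to 6.49 CPM (median 1.36) against 7.86 to 40.9 CPM (median 13.8), with no overlap (2.79 ± 0.21, SE, adjusted p = 1.92e-07). MCTP1, a membrane protein with calcium-binding C2 domains, was at most 1.06 CPM in MINO-P and 3.42 to 12.2 CPM in MINO-VR (2.85 ± 0.19, SE, adjusted p = 4e-08). LGALS3BP, a secreted partner of galectin-3, differed by 2.61 ± 0.39 (SE, adjusted p = 0.000181). These differences were also present with BTZ, where the means were 3.87, 3.06, 3.22 and 2.46. In the other lines of the series, IGF2BP1 reached 64.2 CPM in JEKO-1 and 355 CPM in Z138, and LAIR1 0.865 and 25.4 CPM.

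The differences were unevenly spread over the chromosomes. Chromosome 9 held 208 genes higher in MINO-VR and 6 lower of 576 tested, so 36.1% were higher, against 11% of all genes. Most of these lay between 110 and 140 Mb, where 187 of 287 genes were higher and 1 was lower, with a median of 0.69. This median was between 0.45 and 0.85 in each of the 6 treatments, and 0.63 in the BTZ libraries, which took no part in finding the stretch. Chromosome 2 showed the reverse along its whole length: 157 genes were lower and 18 higher of 957, against 5.77% lower over all genes, and all 24 of its windows of 10 Mb had a median below 0, without BTZ and with it. Its median was -0.22. The first 10 Mb of chromosome 16 held 69 genes higher of 168 (median 0.44, and 0.19 with BTZ). The first 20 Mb of chromosome 19 held 147 higher of 435 (median 0.34, and 0.40 with BTZ). Chromosome X from 100 Mb held 79 higher of 208 (median 0.39, and 0.38 with BTZ). On chromosome 7, 40 to 50 Mb held 18 higher of 40 (median 0.46). Smaller stretches of higher genes lay at 70 to 80 Mb of chromosome 18 (median 0.60), 140 to 150 Mb (0.33) and 180 to 190 Mb (0.54) of chromosome 4, 70 to 80 Mb of chromosome 9 (0.32), 0 to 20 Mb of chromosome 3 (0.39) and 30 to 40 Mb of chromosome 22 (0.31). Stretches of lower genes beside chromosome 2 were 110 to 120 Mb (median -0.41) and 160 to 170 Mb (-0.30) of chromosome 3, and 10 to 20 Mb (-0.39) and 40 to 50 Mb (-0.36) of chromosome 18. Several genes described above lie in these places: PSMB7, TRAF1, TRAF2 and HSPA5 on chromosome 9, CALR and ICAM1 on chromosome 19, BTK and XIAP on chromosome X, XPC and EDEM1 on chromosome 3, and CLIP4, EHD3, RRM2 and DNMT3A on chromosome 2. PSAT1 and ARMCX2 went against their stretches: both were lower in MINO-VR. PSAT1 lies at 70 to 80 Mb of chromosome 9 and ARMCX2 on chromosome X beyond 100 Mb, both stretches of higher genes. Stretches were runs of 10 Mb windows with at least 20 genes and a median beyond 0.3, a rule chosen after the values were seen, and are given without a test. The number of gene copies was not measured here.

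**Figure D5:**
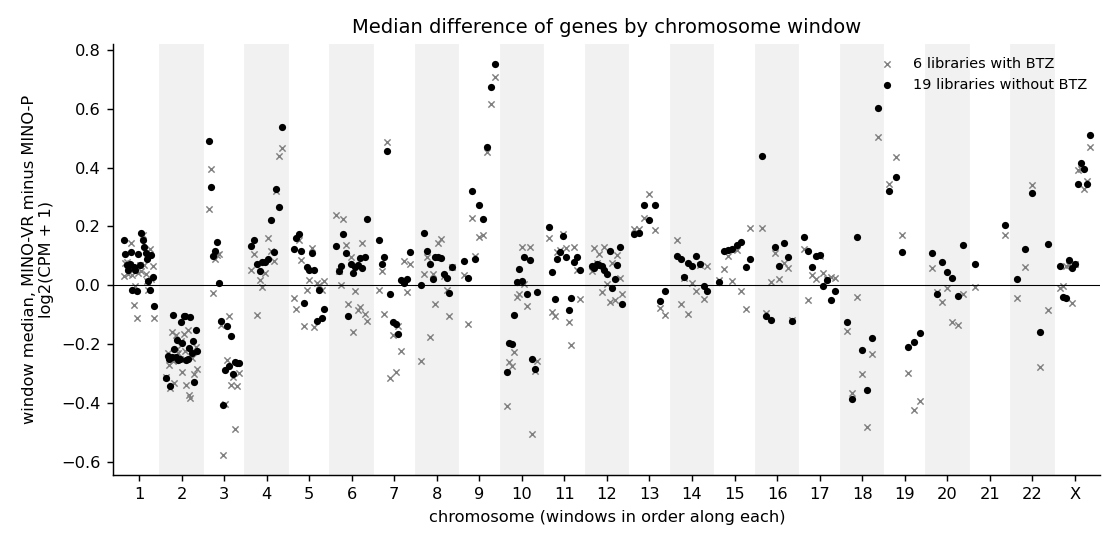
Each black point is the median difference MINO-VR minus MINO-P, on the log2(CPM + 1) scale, of the genes in 1 window of a chromosome with at least 20 genes (251 windows, in order along each chromosome), in the 19 libraries without BTZ; grey crosses show the same windows in the 6 libraries with BTZ. Windows at the end of chromosome 9 lie highest, up to 0.75, and every window of chromosome 2 lies below 0.

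Whether the difference between the cultures itself depended on IBR was tested as an interaction, with IBR and IBR_CLF set against the other 4 treatments. All IBR and IBR_CLF libraries were of the MCL series, whereas CON and CLF were of the HK series. A dependence on IBR therefore cannot be fully told apart from a dependence on the series. Among the IBR and IBR_CLF libraries, only IBR replicate 3 of each culture lay outside the near-identical pairs. At an adjusted p under 0.05, 0 of 14448 genes passed in limma (0%), whereas 1532 were under 0.05 before adjustment. The smallest adjusted p of this test was 0.145. With library weights the same test called 3359 genes, without MINO-P IBR replicate 3 it called 131, and without IBR replicate 3 of both cultures 322, and without MINO-P S63845 replicate 2 it called 2, so the count of 0 rests on these libraries. The median interaction over all genes was 0.21, and -0.0034 with size factors, so a shift common to all genes depends on the scaling. The mitosis list was 0.28 in IBR and 0.78 in IBR_CLF, but -0.46 in CON and -2.08 in YM155.

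The same question for BTZ used 25 libraries, adding 3 of each culture. Again 0 of 14631 genes passed (0%, limma), whereas 904 were under 0.05 before adjustment. NRIP3 came closest, with an adjusted p of 0.112. The count was 674 with library weights and at most 6 when 1 library was left out, reached without either library of BTZ_YM155. A p above the threshold does not show that the difference was the same. In the 6 BTZ libraries, 2224 of the 2423 genes called without BTZ (91.8%) had the same direction, against 65.2% of the genes not called. The share was 91.6% for genes called higher and 92.2% for genes called lower.

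JEKO-1 and Z138 give a range for the genes that set the MINO cultures apart, over all their treatments. CST3 was at 2.84 to 62.2 CPM in the 15 JEKO-1 libraries and 23.98 to 64.9 CPM in the 13 Z138 libraries, and PPP1R9A at 0.486 to 72.3 CPM in JEKO-1 and at 0 CPM in all 13 libraries of Z138. For IFI44L the values were 1.66 to 249.8 CPM in the 15 JEKO-1 libraries and 0 to 717 CPM in the 13 Z138 libraries. TUBB2B was at 0 to 6.69 CPM in the 15 JEKO-1 libraries and 83.7 to 589 CPM in the 13 Z138 libraries. CRIM1, at most 0.61 CPM in MINO-P, reached 109 CPM in JEKO-1 and 2.16 CPM in Z138.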

How the data were processed

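Poly-A RNA of cell line cultures was sequenced in 56 libraries (paired-end reads, per the series' design text). The deposited table holds log2 values, which its sums show to be log2(CPM + 1), and the submitters' processing notes name Partek and hg38. The aligner and counting rule are not given in the sources used here. The values were turned back to CPM, and 1 entry without a name (at most 0.000773% of a library) was left out. Whole reads could be recovered for 81.2 to 85.5% of low values (within 0.02 reads, up to 20 reads), so no count model was used, and read numbers are approximate and cover counting error only.

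Genes with at least 1 CPM in at least 2 libraries were fitted with limma 3.58.1 (R 4.3.3, intensity trend, treatment as block), with Benjamini-Hochberg adjustment over all genes. On simulated data the fit recovered 76% of genes changed by 1 and 100% of those changed by 2 on the log2 scale, with 7 false calls among 14448 genes. The simulated libraries were drawn independently of each other, so this count does not cover false calls from the near-identical pairs. Named were the 12 largest rises and falls with the same order in all 6 treatments and a mean of at least 5 CPM, up to 3 genes per list and direction, and BIRC5, MCL1, BCL2, BTK, PSMB5, PSMB8, CCND1, SOX11 and SLC35F2 whatever their result. Other genes were named after their values were seen, without a leave-one-out fit of their own. The comparison and all gene lists were chosen with earlier results of these data known. A few genes are not reported here.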

Additional observations from a re-analysis of the deposited data

Results flagged for a closer look

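In 6 of 224 groups of libraries examined, 1 library lay far from the others by Dixon's ratio. Chance would give about 11 if the libraries of a group were independent draws from 1 population. Each group pooled a culture's libraries over 6 treatments and both series, so that number is only a rough guide. CON and YM155 had 1 library per culture, so a flag there cannot be told apart from the treatment. PSAT1 in MINO-P was lowest in IBR replicate 3, at 21.3 CPM, with the next library at 74.5 CPM. In MINO-VR CON, SPP1 was lowest at 4.92 CPM (next 34.9 CPM), EPSTI1 highest at 513 CPM (next 241 CPM) and MVP lowest at 82.9 CPM (next 123 CPM). PSMB5 in MINO-VR was lowest in YM155, at 47.0 CPM (next 79.2 CPM). SOX11 in MINO-VR was highest in IBR replicate 3, at 396 CPM (next 202 CPM).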

How the results depend on the processing

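The count of 2423 genes between the cultures was 1050 with the 4 near-identical pairs averaged, 4477 with library weights, 821 without the treatment block, 5488 in the HK libraries alone, 1568 in the MCL libraries alone, 1029 without the IBR_CLF libraries, and 1857 to 2991 when 1 library was left out; the cause was not tested. With size factors 1453 genes were higher and 1150 lower. With a replicate block of treatment and name suffix 2154 genes passed, and 8 of the 103 named genes lost their call. The shared suffix is only a name, and no other pairing was given by the labels. More of the 103 lost their call with the pairs averaged (46), without the IBR_CLF libraries (46) and without the treatment block (67). Of these 103 genes, 31 kept their call under every alternative and 73 when any 1 library was left out. In the HK libraries alone the direction turned for PSMD8 (0.11), IL6R (-0.50), TGFB1 (0.0751), FADS2 (-0.15) and SREBF1 (-0.15). The count of 0 for the interaction with IBR was 2 without a filter on low values, 3359 with library weights and 0 to 131 when 1 library was left out. That with BTZ was 9 without the filter, 674 with library weights and 0 to 6 when 1 library was left out. Alternatives chosen after seeing the data gave, for the culture difference, 3407 genes without IBR replicate 3 of both cultures, 2954 without MINO-P IBR replicate 3 and S63845 replicate 2, 3526 with IBR replicate 3 as its own block and 1790 with that block and the pairs averaged. For the IBR interaction they gave 322 and 217, and for BTZ 3 and 1, without IBR replicate 3 and without those 2 MINO-P libraries. Genes under about 0.38 CPM rest on 3 reads or fewer in the shallowest library.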

Other observations

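The 3 MINO libraries whose treatment was present in 1 culture only entered no comparison. MINO-P IBR_YM155 and MINO-P IBR_S63845 had 115 and 100.3 CPM of PSAT1, and MINO-VR BTZ_S63845 had 0 CPM. CST3, the cathepsin inhibitor, was at 24.9, 21.2 and 0 CPM in the same order. IFI44L was at 308, 189 and 245 CPM, and the median over the 29 interferon genes was 159, 126 and 93.2 CPM.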
